A study of Chlamydomonas reinhardtii with 4 samples.

Results

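The first measured point of a nitrogen starvation time course in the green alga Chlamydomonas reinhardtii is 1 two-colour Agilent array, on which RNA from cells kept for 24 h without nitrogen (Cy5) was hybridised against RNA from the same strain at 0 h (Cy3). The series holds 4 such arrays, with 24, 48, 72 and 96 h in Cy5 and 0 h in Cy3 on each. The strain was wt cc3491 throughout. Per the study's methods, the 0 h cells came from cultures grown to early stationary phase in acetate-containing TAP medium, and the starved cells had been washed and moved to TAP without nitrogen under constant light. Washing, fresh medium and lack of nitrogen therefore cannot be told apart in any 24 h value. The series description gives 3 biological replicates that were pooled, so that each time point is 1 RNA pool on 1 array. The dyes were not swapped, and no test of 24 h against 0 h was possible.

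The array carries 43671 probes for 14557 transcript models of the JGI 3.1 gene set, with 3 probes per model. Probes had to stand well above background in at least 1 of the 2 channels, and the value of a model was the median over its kept probes of the log2 ratio of the 24 h to the 0 h signal. Signals are printed as the median over kept probes, taken for each channel separately, so that a fold, which comes from the median ratio, need not equal the quotient of the 2 signals. This left 24483 probes of 11631 models, of which 4629 kept 3 probes, 3594 kept 2 probes and 3408 kept 1 probe. A model is called higher or lower here when its log2 ratio was at least 1 or at most -1, which is a 2-fold difference and not a statistical call. Models are given by symbol where the study's tables on sulfur and nitrogen starvation name them, and by number otherwise. Of the 45 models that both tables name, 18 carry different symbols, so a name found only in the nitrogen table is written as "listed as".

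In algae, nitrogen starvation slows protein synthesis and halts cell division for lack of amino acids, while the cell takes up whatever ammonium, nitrate or organic nitrogen it can find. Glutamine synthetase joins ammonium to glutamate and so brings nitrogen into organic form. Cells also dismantle their photosynthetic apparatus, which holds much of the cell's protein, store starch and oil, and in Chlamydomonas turn into gametes.

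At 24 h, 1364 of the 11631 models (11.7%) were at least 2-fold higher than at 0 h and 1198 (10.3%) were at least 2-fold lower, together 22% of the models. The median log2 ratio was 0.13, with the 5th percentile at -1.57 and the 95th at 1.56. Large differences were evenly spread, with 250 models at least 4-fold higher and 289 lower, and 27 at least 16-fold higher and 28 lower. The higher and lower models past 2-fold were less even in quality. In 621 of the 1364 higher models the 0 h signal was not well above background on any kept probe, whereas 52 of the 1198 lower models were dim in the 24 h channel. With another background correction and dye normalisation (normexp and loess) the split was 386 higher against 799 lower models, and with probes well above background in both channels it was 626 against 1167. With the intercept of the spike-in fit taken off it was 354 against 3456.

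**Figure D1:**
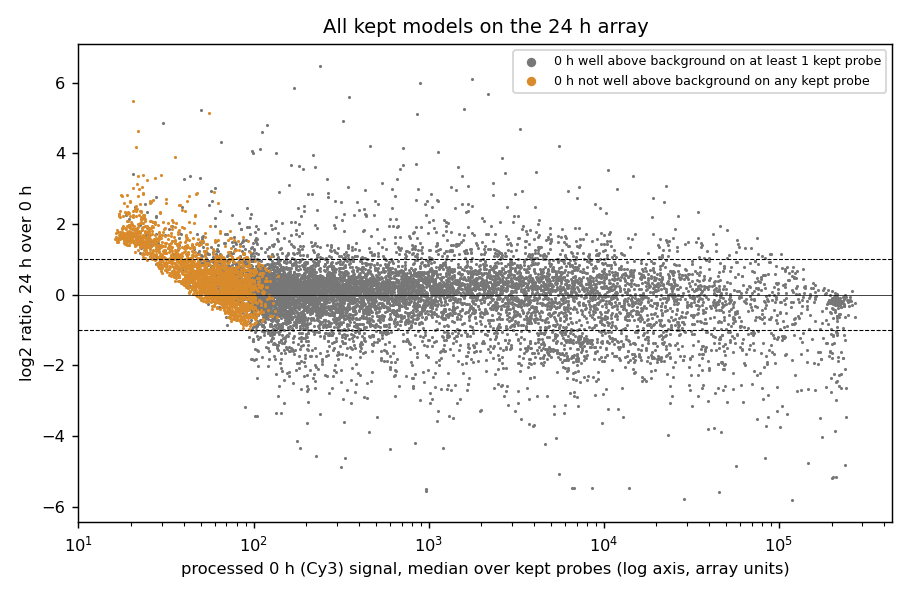
Log2 ratio of 24 h over 0 h of each of the 11631 kept models (y axis) against its processed 0 h signal in array units (x axis, log scale), with dashed lines at 2-fold. The models whose 0 h signal was not well above background (orange, 2207 models) sit at the left edge and hold 621 of the 1364 models at least 2-fold higher, while the models with the largest differences spread over the whole range of 0 h signal.

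The probes of a model gave a technical check. Over 8223 models with at least 2 kept probes the median SD between probes was 0.28 log2 units, and the 90th percentile was 0.96. Of 1906 such models past 2-fold, 1033 (54.2%) had every kept probe past 2-fold on the same side, namely 436 of 882 higher and 597 of 1024 lower models, and 147 had probes on both sides of 0. Probes 1 and 2 lay closer together (median absolute difference 0.17 log2 units over 4918 models) than probes 1 and 3 (0.30 over 3795 models) or probes 2 and 3 (0.29 over 3412 models). The paper added probes of the earlier array generation as replicate 3. It reports lower log2 ratios for them and possible cross-hybridisation for many, and left them out. Probe 3 was kept here, so the 3 probes are not equivalent replicates. Over 905 models the median absolute log2 ratio was 1.49, 1.58 and 1.13 for probes 1, 2 and 3. These are a subset with large ratios, beside 4629 models that kept 3 probes, so the values are not those of a typical model. Probe 3 was smaller than probe 1 in 68.7% of the 905. With probe 3 left out, 1256 models were higher and 1167 lower. The 0 h RNA, labelled on all 4 arrays, gave a median SD between arrays of 0.069 log2 units (95th percentile 0.26). This covers 8396 models with probes well above background at 0 h on every array. These spreads cover probes and hybridisation, not cultures.

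The probes of 4 models, taken from the study's supplementary probe table, show this spread in members with large ratios. They are printed 5′ to 3′, and capitals mark a stretch that probes 1 and 2 of a model share.
NSG13 probe 1: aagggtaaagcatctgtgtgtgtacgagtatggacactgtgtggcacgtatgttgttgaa
NSG13 probe 2: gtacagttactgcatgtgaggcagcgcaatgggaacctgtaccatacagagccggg
NSG13 probe 3: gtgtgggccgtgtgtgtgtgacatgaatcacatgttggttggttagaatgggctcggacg
FEA1 probe 1: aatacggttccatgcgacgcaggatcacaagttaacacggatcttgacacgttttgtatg
FEA1 probe 2: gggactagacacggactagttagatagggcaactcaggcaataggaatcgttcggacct
FEA1 probe 3: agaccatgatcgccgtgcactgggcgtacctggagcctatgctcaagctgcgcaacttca
Model 195502 probe 1: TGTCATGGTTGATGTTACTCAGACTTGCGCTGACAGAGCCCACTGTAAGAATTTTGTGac
Model 195502 probe 2: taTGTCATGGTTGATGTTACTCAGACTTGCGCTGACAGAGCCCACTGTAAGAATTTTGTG
Model 195500 probe 3: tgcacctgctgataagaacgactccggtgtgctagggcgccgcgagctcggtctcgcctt
The 3 probes of NSG13, a gene named for nitrogen-starved gametes, gave log2 ratios of 5.22, 5.26 and 0.97 and share no stretch. At 0 h 1 of the 3 was well above background, so the size of the higher ratios is uncertain. The 3 probes of model 129929, listed as the iron-assimilating protein FEA1, gave -5.92, -5.47 and -3.64. In model 195502, probes 1 and 2 share 58 bases and are thus nearly 1 measurement, with log2 ratios of -5.13 and -5.22. Model 195500 carries the same probes 1 and 2 (-5.15 and -5.16), and its own probe 3 gave -3.17. Such overlap was common. In 679 of the 1507 models with sequences read (45.1%), probes 1 and 2 shared at least 20 bases, and their median absolute difference was 0.094 log2 units (229 models measured in both channels) against 0.24 in the rest (307 models).

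The nitrogen genes held the largest ratios on the array. Of the 10 models with the largest positive ratios, chosen among those with at least 2 kept probes all past 2-fold, GLN3, AMT4, NAR2 and AMT1A belong to the uptake and assimilation of inorganic nitrogen. In the list of 11 measured ammonium, nitrate and glutamine synthetase genes 9 were higher and 0 lower, with a median log2 ratio of 4.32 beside 0.13 for all models. The symbols of this and the following lists come from tables of genes that responded in this or the parallel sulfur experiment, so their counts are no independent evidence of direction. Only the 478 kept models with a symbol could enter a list, so "measured" counts named members and not whole gene families.

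AMT4 and AMT1A encode ammonium transporters. The AMT4 signal went from 888 array units at 0 h to 58462 at 24 h, a 64.0-fold difference, with probes at log2 ratios of 6.39, 5.51 and 6.0. AMT1A went from 1598 to 77926 units, 38.0-fold, with probes at 5.25, 5.61 and 3.45. Both stayed at this height on the later arrays, with log2 ratios of 5.85, 5.70 and 5.71 for AMT4 and 4.83, 4.89 and 4.70 for AMT1A at 48, 72 and 96 h.

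Nitrate is taken up by the NRT2 and NAR2 transport system, reduced to nitrite by nitrate reductase (NIT1), and reduced further to ammonium in the chloroplast by nitrite reductase (NII1). NAR2 went from 170 to 14712 units (57.9-fold, probes at log2 ratios of 5.86, 5.45 and 6.68). NII1 had a log2 ratio of 4.69 from 2 closely matching probes at 4.68 and 4.70, with signals of 3336 and 86210 units. NIT1 was at 4.32, but its 3 probes spanned 5.61, 4.32 and 1.63 and its 0 h signal was well above background on 1 probe. Model 188890, described as an NADH nitrate reductase, was at 4.0 (probes 4.26, 3.51 and 4.0). NIT2, the RWP-RK transcription factor that activates the nitrate genes, was less strongly raised, at 1.65 (probes 1.81 and 1.48, signals of 6004 and 18779 units). Of the NAR1 family of chloroplast anion transporters, NAR1.2 had probes at 2.52, 0.70 and 2.85, but its 0 h signal (55.9 units at the median) was well above background on 1 probe. NAR1.3 was at -0.22.

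The largest ratio of all in this selection belonged to model 192090, which went from 238 to 28970 units (89.1-fold, probes at log2 ratios of 6.93, 4.46 and 6.48). It corresponds to locus CHLRE_09g410850v5 of the RefSeq gene table, which lies 2 genes after NII1 and directly before NAR2 and NIT1 on chromosome 9. The study's text calls this locus a nitrate transporter. Its later log2 ratios were 5.97, 6.05 and 5.72, so that this group of neighbours had high ratios on every array.

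Among the glutamine synthetases, GLN3 went from 1778 to 146685 units, 68.7-fold, with probes at log2 ratios of 6.10, 4.96 and 6.82. GLN1 was at 1.11 with probes at 0.05, 1.11 and 1.29, so its probes did not agree on a 2-fold difference. GLN2 was saturated in both channels on all 3 probes, and no ratio can be read from it. GLN4 had no kept probe. GLN3 alone among the measured members of this enzyme family thus had every probe well past 2-fold, and it stayed at 5.98, 5.83 and 5.79 on the later arrays.

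**Figure D2:**
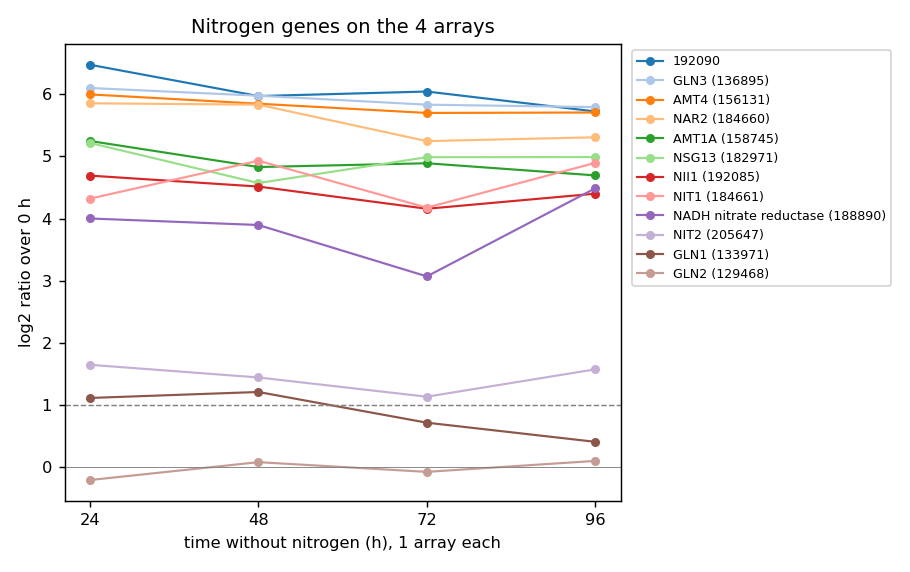
Log2 ratios over 0 h (y axis) of nitrogen genes on the 4 arrays (x axis, hours without nitrogen, 1 array each), with a dashed line at 2-fold. Model 192090, GLN3, AMT4 and NAR2 were near 6 already at 24 h and lay between 5.25 and 6.05 later, whereas GLN2, saturated in both channels, lay near 0.

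Genes for the use of organic nitrogen followed, with 7 of 11 measured models higher, 0 lower and a median log2 ratio of 2.57. ARG1, an enzyme of arginine synthesis (N-acetyl-gamma-glutamyl-phosphate reductase) and not of organic nitrogen use, was at 3.03 with close probes (3.03, 3.17 and 2.79). Model 183011, listed as urate oxidase (UOX), an enzyme that opens up purines, went from 10559 to 146209 units (3.52). Model 184080, listed as the L-amino acid oxidase LAO1, which frees ammonium from amino acids outside the cell, was at 3.67, with probes between 3.17 and 6.57. The amino acid carrier gene AOC5 (model 205770) was at 2.57 with probes at 2.56 and 2.57. A second model listed as AOC5 (182166) was at 4.11, with its probe 3 at -0.02 and 1 probe well above background at 0 h. The log2 ratio of AOT2, another amino acid transporter, was 0.64. The model listed as the amino acid carrier AOC3 was at -0.33, with probes at -2.21 and 1.56. The model listed as UAPA1, a uric acid-xanthine permease, was at -0.18, with 2 probes saturated at 0 h.

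Model 182461 is named GGH1, a gamma-glutamyl hydrolase, in 2 of the study's tables and GLD2, a glucose-6-phosphate dehydrogenase, in others. It reached 51.6-fold, with signals of 2180 and 119559 units. Its first 2 probes were at log2 ratios of 5.78 and 5.69 and its probe 3 at 1.23. Unlike the transporters, its value on the later arrays was lower, at 4.74, 3.87 and 3.92. Model 195735, listed as the type II NADH dehydrogenase NDA7, was 30.3-fold higher with probes at 4.90 and 4.94. The remaining 3 of the 10 have no name. Model 180430 went from 350 to 16901 units (48.3-fold), model 192854 was 34.6-fold higher with probes at 4.88, 5.11 and 5.39, and model 186833 was at least 20.03-fold higher, since its 0 h signal was not well above background.

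The 10 largest negative ratios went down to much the same size. Model 151619, a hypothetical protein, went from 118681 to 2092 units (56.7-fold lower, probes at log2 ratios of -5.83, -6.46 and -5.74). Model 186495 went from 28559 to 255 units, 54.8-fold lower, and its later log2 ratios were -5.94, -2.87 and -6.17, so the 72 h array stood apart. Model 157675 was at least 21.3-fold lower, as it was not well above background at 24 h. Model 205757 (LHCBM8), a light-harvesting protein, was 44.7-fold lower, and the model listed as FEA1 was 44.4-fold lower. Model 188630 was 44.2-fold lower, although its probe 3 was at -1.11. Model 174753 (RBD2), a rubredoxin, which is a small iron protein of electron transfer, was 34.0-fold lower, with 1 of its 2 kept probes well above background at 24 h. Another model listed as RBD2 (190735, 1 probe) was at -0.28.

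The other 3 had nearly the same signals. Model 80367, listed as the flagellar membrane protein FMG1-A, went from 201551 to 5600 units, model 195502 from 211766 to 5848 units and model 195500 from 202814 to 5687 units. The latter 2 are listed as prolyl isomerases (FKB16-2.c and FKB16-2.a) and share the probes printed above, so they are not separate measurements. Whether model 80367 is a measurement separate from theirs was not tested. All 3 were again lower at 48 h and less so later, with log2 ratios of -5.68, -3.81 and -3.32 for model 80367. Another model listed as FMG1-A (16132) was at -2.67 at 24 h and at -2.91, -3.09 and -2.90 later. Probes of models 80367 and 195502 were saturated at 0 h in part, which would make the ratio too small.

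**Figure D3:**
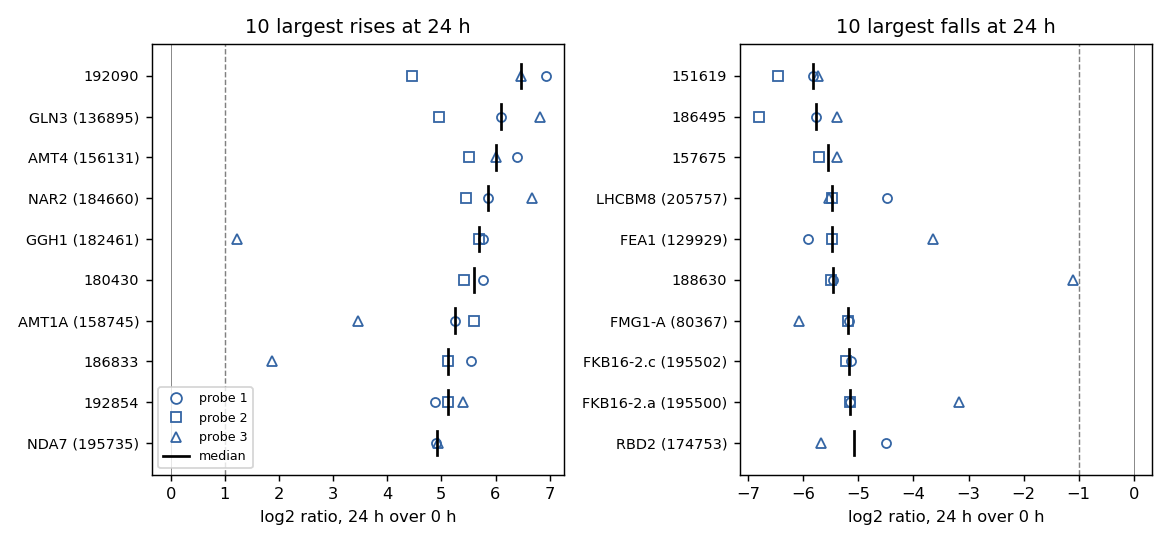
Log2 ratio of 24 h over 0 h (x axis) of each kept probe (circle, square and triangle for probes 1, 2 and 3) and their median (bar) in the 10 models with the largest positive (left) and negative (right) ratios, dashed lines at 2-fold. Probe 3 stands apart from the other probes in GGH1, AMT1A, the model listed as FEA1, model 186833, model 188630 and model 195500.

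Transcripts of the photosynthetic antenna were lower. Of 14 light-harvesting protein models measured, 12 were lower and 1 higher, with a median log2 ratio of -2.61. These proteins bind chlorophyll and pass light energy to photosystem I (LHCA) or II (LHCB and LHCBM). LHCBM4 went from 239774 to 8102 units, a log2 ratio of -4.83. LHCB5, a minor antenna of photosystem II, was saturated at 0 h on all 3 probes and was at least 14.6-fold lower, with 14234 units at 24 h. LHCB4 was at -3.00, LHCA5 at -2.99 and LHCA8 at -2.45, all with at least 2 probes beyond -2. The 0 h signal was partly saturated in LHCBM4, LHCA5, LHCA8, LHCBM7, model 184471 (LHCA1) and both models of LHCA7, and their ratios are underestimates to that extent. LHCBM9 was not well above background at 0 h, with signals of 70.9 and 84.5 units. The 1 higher model, 206001 (log2 ratio 2.28, signals of 329 and 1598 units), is listed as LHCA1, but another model carries this name as well. Its later ratios were 2.85, 0.72 and 6.04 without order.

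The stress-related antenna genes had another pattern. LHCSR3 and LHCSR2 encode proteins that turn excess light energy into heat, and both were higher at 24 h, at log2 ratios of 3.28 and 2.65, each with 1 probe well above background at 0 h. Both were higher still on each later array, with 3.96, 4.30 and 4.37 for LHCSR3 and 3.61, 3.73 and 4.21 for LHCSR2. LHCSR1 was at -0.91 at 24 h and -0.89 at 48 h, and at -2.96 and -2.81 afterwards. PSBS2, at -0.50, and ELI3, at -0.73, were within 2-fold.

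Subunits of the photosystems, the cytochrome b6f complex and ATP synthase and their electron carriers numbered 16 measured models, of which 12 were lower and 1 higher (median -1.80). PSBX was at -3.35, PETO, a protein associated with the cytochrome b6f complex, at -2.39, and the models listed as PSAL and PSAK of photosystem I at -2.0 and -1.98. PSAH was saturated at 0 h on all 3 probes and was at least 3.66-fold lower. The 3 named Calvin cycle genes were lower or near the limit. PRK1 (phosphoribulokinase) was at -1.86, GAP3 (glyceraldehyde phosphate dehydrogenase) at -1.54 and TRK1 (transketolase) at -0.98, the first 2 with a first probe at -0.54 and -0.11. For the antenna the later medians were close to the 24 h value, at -2.92, -2.47 and -2.37 for the antenna beside -2.65 at 24 h over the 13 models measured on all arrays. The photosystem list was at -1.83, -1.73 and -1.47 later, and the Calvin cycle list at -0.75, -1.55 and -1.40, thus within 2-fold at 48 h.

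The genes of chlorophyll and haem synthesis differed in time. At 24 h 4 of 6 were lower and 0 higher, with a median of -2.30, while over the same models the later medians were -0.25, -0.38 and 0.34. GSA makes aminolevulinate, the first committed precursor, and went from 36368 to 5809 units at 24 h (probes at log2 ratios of -2.65, -1.66 and -2.70). On the later arrays it was at -0.30, -0.69 and 0.33. PBGD1, a later step of the same route, was at -1.96 and then at -0.21, -0.07 and 0.35, with its probe 3 at 0.43 at 24 h. CPX1 went the same way from -0.54 to 0.61, 0.66 and 0.56. The models listed as CHLM (-3.08) and CRD1 (-2.70), enzymes of the chlorophyll branch, were lower at 24 h, CHLM with later values of -1.81, -2.26 and -0.79 (within 2-fold at 96 h) and CRD1 with -2.23, -2.12 and -2.30.

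The 3 models that the study's sulfur table names as chloroplast ribosomal proteins were lower at 24 h. On the later arrays they were within 2-fold on the scale of the deposited signals. PRPL7/L12 had a log2 ratio of -2.59 at 24 h and of -0.57, -0.28 and 0.38 later. Its probe 3 was at -0.45 at 24 h, and 1 of its probes was 0.50 higher at 24 h than its own later mean. PRPL31 was at -2.23 and then at -0.31, -0.19 and 0.56, and PRPL29 at -1.92 and then at -0.23, -0.31 and 0.38. With each array centred on its spike-in RNAs, PRPL31 was at -3.09, -1.45, -2.56 and -1.69. PRPL7/L12 was then at -3.44, -1.71, -2.65 and -1.87, and PRPL29 at -2.77, -1.37, -2.67 and -1.87. All 3 were thus lower on every array, and PRPL29 was nearly as low at 72 h as at 24 h. EIF3B, a subunit of a cytosolic translation initiation factor, was at least 3.44-fold lower at 24 h, where it was not well above background, with later log2 ratios of -1.08, 0.04 and -0.99. Cytosolic ribosomal proteins were represented by 1 model and mitochondrial ones by 0, too few for a statement on them.

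The spread within lists was small for some and wide for others. In the carbon-concentrating mechanism 8 of 16 models were higher and 2 lower (median 0.92, or 0.24 with probes well above background in both channels). The model listed as LCI6 (184094) was at 4.21 and the one listed as LCID at least 8.39-fold higher, its 24 h signal being saturated on both kept probes. In the list of phosphate and sulfate starvation genes 2 of 13 were higher and 2 lower (median 0.11). Model 183357, a phosphate transporter named PTA3 in 2 of the study's tables and PTB3 in others, was at -3.24 with 12104 and 1173 units, whereas the phosphate transporter PTB2 was at -0.63 at 24 h and at 1.22, 2.38 and 0.52 later. Of 3 RWP-RK factors, the family of NIT2, 3 were higher, RWP4 at 1.52 (1 probe well above background at 0 h) and the model listed as RWP11 at 2.06.

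Of 7 genes of acetate use, the glyoxylate and the citrate cycle, 1 was higher and 1 lower (median -0.07). ICL1, the isocitrate lyase of acetate assimilation, was at -0.07, but 2 of its probes were saturated in both channels. In the 5 genes of glycerolipids 2 were higher and 1 lower (median 0.00). The glycerol-3-phosphate dehydrogenase GPD1 was at 3.46 (4089 and 45096 units, probes at 4.57, 3.46 and 2.94). GPD4, of the same enzyme family, was at least 3.02-fold higher, since its 0 h signal was not well above background. The SQD genes of sulfolipid synthesis were at -1.35, -0.92 and 0.00. Fatty acid synthesis (2 models), starch metabolism (1), autophagy (1) and the proteasome (0) were too thinly represented for a count. Of 4 genes of hydrogenase and fermentation 1 was lower and 0 higher, the model listed as HYDA1 at -2.47. HYDA2 was at -0.86.

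Histone transcripts were lower nearly as a whole. Of 71 measured histone models 70 were lower and 0 higher (median -1.70), and the exception, HTV3, was at -0.69. Every kept probe was past 2-fold in 18 of the 71, beside 597 of 1024 lower models in all, and probe 3 lay between -1.28 and -0.51, within 2-fold in 53 of the 70 models that kept it. The median was -1.78 for 27 H2A models, -1.54 for 26 H2B models, -1.77 for 3 H3 models and -1.84 for 13 H4 models. Histone genes are near-identical copies, so probes of different models can bind the same transcripts and the 71 models are not 71 measurements. At 48, 72 and 96 h the H2A medians were -2.74, -2.89 and -2.89 and the H2B medians -1.32, -1.09 and -1.09. The H2A names came mostly from the nitrogen table alone and the H2B names mostly from the sulfur table. Class and source of the name therefore cannot be told apart here. HTB10, an H2B model named in the study's table of both starvations, was at -2.06 and then at -3.66, -4.31 and -4.77.

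The 9 cell division models were mostly within 2-fold at 24 h, with 1 higher, 1 lower and a median of -0.65. On the later arrays their medians were -2.22, -2.98 and -2.77. Models 195433, 195434 and 206120, listed as mitotic cyclins CYCB1.a and CYCB1.b, had nearly the same values on every array and weigh on these medians like 3 members, although they may not be separate measurements. Model 195433 was at -0.62 and then at -2.25, -3.23 and -4.69. The model listed as MIND1, a chloroplast division protein, was at -0.73 and then at -2.31, -3.58 and -3.98. The model listed as FTSZ2, of the same process, had signals of 2171 and 1305 units at 0 h and 24 h, with log2 ratios of -0.73, -1.56, -2.79 and -3.47 on the 4 arrays. Over its 2 probes kept on all arrays these were -0.50, -1.51, -2.44 and -2.57.

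Flagellar genes were lower at 24 h in 29 of 36 measured models, with 0 higher and a median of -2.0. The 2 unmeasured members of the 38 had no kept probe. The model listed as FAP285 went from 84192 to 6044 units (log2 ratio -3.72), and FAP138 was at -3.11 with later values of -3.15, -0.52 and -2.73. Over the list the later medians were -1.78, -0.31 and -1.95, so that the 72 h array differed from the other 3. The model of the second flagellar membrane glycoprotein, listed as FMG1-B, was at -3.14 at 24 h and at -5.58, -5.67 and -5.25 afterwards.

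Gamete and mating genes went both ways, with 3 of 6 higher and 3 lower (median -0.02). Beside NSG13 (signals of 50.4 and 1937 units at the median probe), MTA4 was at 1.43 and the model listed as SAD1 was at least 4.03-fold higher from a 0 h signal that was not well above background. The model listed as ZYS3-1, a zygote gene, was at -1.85, and the 2 models named MMP3, a metalloproteinase, were at -1.84 and -1.46. Cell wall proteins were as mixed, with 4 of 10 higher and 5 lower (median -0.70), among them FAS3 at 3.05 and HRP3, a hydroxyproline-rich protein, at -4.64. Of 9 chaperones 2 were higher and 2 lower (median -0.34). The small heat shock protein HSP22D was at 1.33 at 24 h and at -0.17, -1.67 and -3.06 later.

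**Figure D4:**
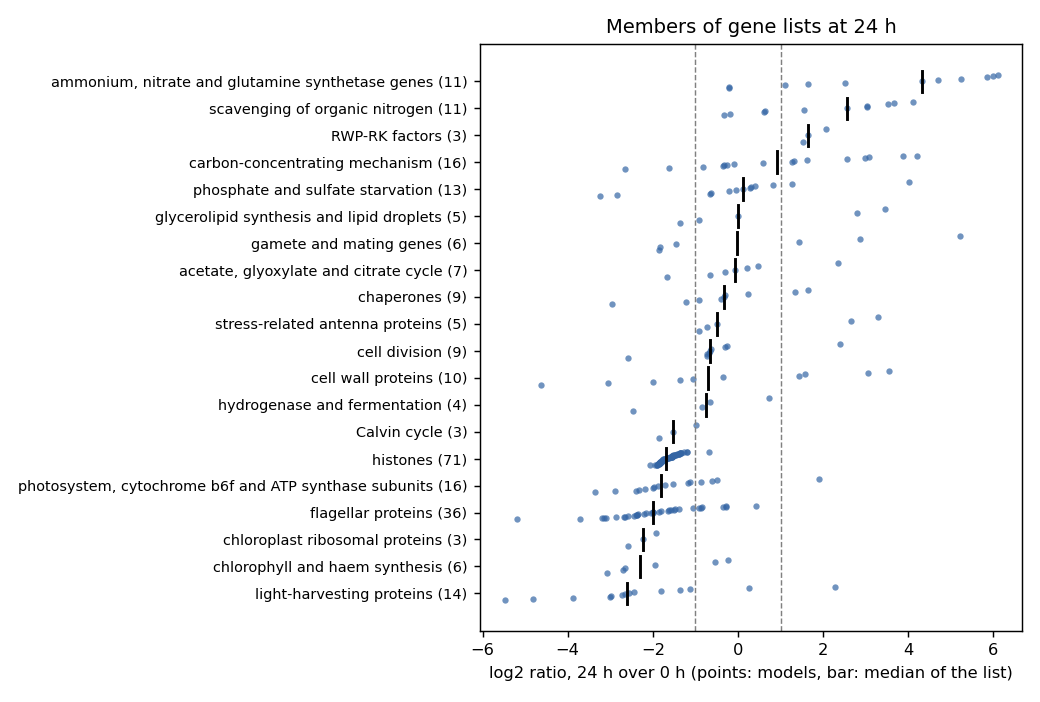
Log2 ratio of 24 h over 0 h (x axis) of every measured model in the 20 lists with at least 3 measured models (y axis, number of models in brackets), with the list median as a bar and dashed lines at 2-fold. Genes of inorganic nitrogen (median 4.32) and the antenna genes (median -2.61) form the ends, and 70 of 71 histone models lie below -1.

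What set the 24 h array apart from the later ones was examined over 10791 models with common probes on all 4 arrays. The 4 arrays share the 0 h RNA, and a dye effect that is the same on each cancels in this comparison. The 0 h signal was not equal on the arrays for every model, however. That of NAR1.2 was 55.9, 73.5, 111 and 1332 units on the 24, 48, 72 and 96 h arrays, and the cause was not tested. In limma, with 24 h against the mean of the 3 later arrays, 0 models were called at an adjusted p of 0.05 (1003 had an unadjusted p under 0.05), and the smallest adjusted p was 0.392. That fit had 2 residual degrees of freedom and assumed that the lone 24 h array varied like the later ones. The later arrays are different time points and not replicates, so any change from 48 to 96 h counted as spread. The rest is therefore description. At 24 h, 152 models (1.41%) lay at least 1 log2 unit above the highest of the other arrays and 163 (1.51%) at least 1 below the lowest. The same counts were 36 (0.334%) and 9 (0.0834%) for 48 h, 286 (2.65%) and 90 (0.834%) for 72 h, and 84 (0.778%) and 112 (1.04%) for 96 h. The 24 h array thus had the most models below the others, and the 72 h array the most above.

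These counts depend on the scale. The spike-in RNAs added in labelling (320 probes with 10 names) had median log2 ratios of 0.86, 1.14, 2.37 and 2.25 on the 4 arrays, whereas the medians of the models were 0.13, 0.15, 0.14 and 0.16. With each array centred on its spike-ins, 4 models instead of 163 lay below and 602 instead of 152 above. All later values here are on the scale of the deposited signals, in which the typical model is near 0 on each array.

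The 163 models below the later range were at a median of -1.37 at 24 h and at -0.06, 0.21 and 0.38 afterwards. Of them 99 were at least 2-fold lower at 24 h, and in 78 of these 99 all later arrays were within 2-fold. In 25 of them the 24 h value was within 2-fold and every later value at least 2-fold higher. The 3 named chloroplast ribosomal proteins, GSA and PBGD1 belong to this group. For GSA limma gave a difference from the later mean of -2.43 (SE 0.45, adjusted p = 0.392). With spike-in centring GSA was at -3.50, -1.44, -3.05 and -1.92, no longer a full unit below the 72 h array.

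Among models with at least 2 kept probes, the unnamed ones with the largest gaps had a similar course. Model 115042 was at -3.64 at 24 h and at -0.85, -0.43 and -0.12 later, but at 24 h it was well above background on 1 of its 3 probes, with a median signal of 19.1 units, so that its 24 h ratio and its rank are uncertain. Model 186446 was at -3.14 and then at -0.76, -0.04 and 0.34, and model 132194 at -2.86 and then at -0.76, -0.71 and 0.14. Models 196265 and 195623 were both at -2.66, and model 195635 was at -2.13 and reached 0.41 at 96 h. In each, all kept probes agreed in the direction of the difference. Model 143991, with 1 kept probe, had a larger gap and another course, at -0.71 and then at 2.44, 3.48 and 2.79.

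The 152 models above the later range were at a median of -0.15 at 24 h and at -1.41, -2.25 and -2.50 afterwards. In 53 of them 24 h was within 2-fold and every later array at least 2-fold lower, 43 were lower on all arrays but least at 24 h, and 24 were higher at 24 h and within 2-fold later. The model listed as ZYS3-1 was at -1.85 and then at -4.13, -5.14 and -5.49 (limma difference 3.07, SE 0.57, adjusted p = 0.392). THB1, a truncated haemoglobin, was at 0.62 and then at -1.17, -1.60 and -1.66. Among models without a name, 182218 was at -1.26 and then at -2.99, -4.56 and -5.84, model 146197 at -1.21 and then at -3.43, -3.79 and -4.39, and model 142751 at 1.2 and then at -0.53, -0.73 and -0.98. Of the histones 13 of 71 models and of the cell division genes 5 of 9 were in this group, beside 1.41% of all models. Both lists hold models with near-identical values that are not separate measurements. Most names in both lists come from the study's nitrogen table alone, which holds genes that responded on these arrays. These shares are therefore no independent evidence of a difference at 24 h.

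**Figure D5:**
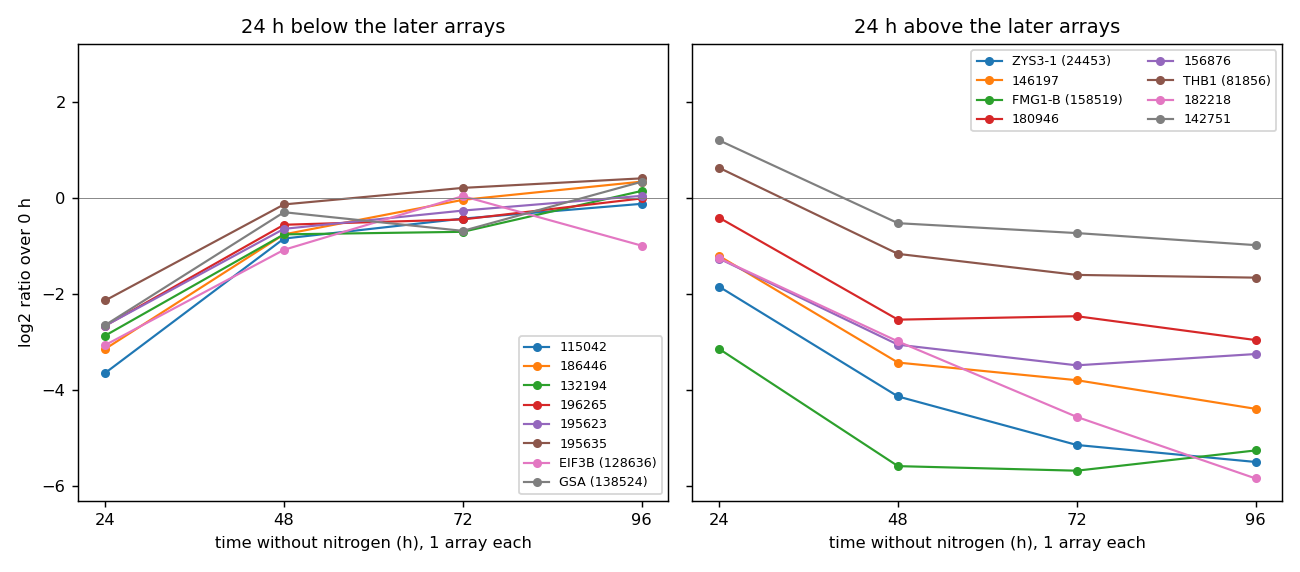
Log2 ratios over 0 h (y axis) on the 4 arrays (x axis, hours without nitrogen, 1 array each) of the 8 models with the largest gap below (left) and above (right) the later arrays at 24 h, among those with at least 2 kept probes that agree in direction. On the left all lie between -3.64 and -2.13 at 24 h, and on the right all lie lower at each later time than at 24 h.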

How the data were processed

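Two-colour Agilent arrays were read as the authors deposited them. The processed signal intensities had been made with Feature Extraction 10.7.3.1 and, per the file headers, were background-subtracted and dye-normalised (linear and lowess). The deposited log10 ratios were used only to check that the ratio runs as Cy5 over Cy3, and the series table of values held the same numbers. The deposited median signal and background intensities served the normexp alternative. Flags for spots well above background, saturated or outlying were taken as deposited (coded other than as a measurement). Outlier spots and control spots were left out.

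Each model's log2 ratio is the median over its kept probes, from processed signals. Python 3.11.15, pandas 2.3.3, R 4.3.3 and limma 3.58.1 were used, and the limma step was tested on simulated data. The fit of 24 h against the later arrays used probes kept on every array, with Benjamini-Hochberg adjustment and a threshold of 0.05 and 2-fold. Symbols came from the study's tables. Loci came from the RefSeq gene table (12302 of 14557 models and 9830 of the 11631 kept matched), which is of another build, so no coordinates are given. Of the kept models 478 have a symbol, 189 of these from the nitrogen table alone.

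Models were named by rule: the 10 largest rises and falls with at least 2 kept probes all past 2-fold and none saturated in both channels, the study's nitrogen genes, up to 4 members per list with the largest ratios, and up to 8 models in each direction with the largest gap to the later arrays and at least 2 kept probes agreeing in direction. This gave 127 models, of which 125 were kept. Other list members (among them LHCBM7, LHCA1, PSAH, CPX1, AOC5 model 205770, AOT2, AOC3, UAPA1, MTA4, SQD1, MMP3 model 130038, the CYCB1 models, HTV3, RBD2 model 190735 and model 143991) were named after their values were seen. The members and all 26 lists were chosen with earlier results of these data known. Alternatives were normexp with an offset of 50 and loess, a filter on both channels, no filter, every kept probe past 2-fold, centring on spike-ins and leaving out each later array. A correction by the spike-in intercept was added after seeing the data. Bounds for dim models ("at least") set the lowest signal well above background, 84.3 units at 0 h and 43.6 at 24 h, or the model's own signal where higher, in the place of the dim one. With 1 array per time point, the number of arrays limits precision. The p-values measure only the spread between later arrays, which includes any change over time between them.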

Additional observations from a re-analysis of the deposited data

How the results depend on the processing

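Of the 104 named models past 2-fold at 24 h, 0 changed sign under any alternative tried, and 34 of 41 higher and 57 of 63 lower models stayed past 2-fold with normexp and loess. Most of these models were named for large ratios in the same data, so their stable sign is no independent check. Only 78 of the 104 had a value with every kept probe past 2-fold, and 98 with both channels well above background. The count of higher models (1364) was 386 with normexp and loess, 626 with probes well above background in both channels, 882 with no background filter, 436 with every kept probe past 2-fold, and 354 with the spike-in intercept taken off, an alternative chosen after seeing the data. The count of lower models (1198) was 597 with every kept probe past 2-fold and 3456 with the spike-in intercept. Probe agreement was 64.3% instead of 54.2% with both channels above background. The limma fit of 24 h against the later arrays called 0 models under every alternative (0 to 0 when each later array was left out) except spike-in centring, which called 16, all higher at 24 h. Models above the later range (152) numbered 70 with normexp and loess and 602 with spike-in centring, and those below (163) numbered 86 and 4. The lists with a median past 2-fold numbered 10, and 9 to 15 under the alternatives. The causes were not tested, other than that dim 0 h signals are raised by the normexp offset by construction. No paired analysis was possible because the labels give no replicate numbers and each time point is 1 array. Signals under 84.3 units at 0 h and saturated spots limit the ratios of dim and of very abundant transcripts.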
